A study of Mus musculus with 8 samples.

Results

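The genes described here are 10 genes of the dermal extracellular matrix: the small leucine-rich proteoglycans Dcn, Bgn, Aspn, Lum, Fmod, Prelp and Ogn, and the matrix proteins Dpt, Sparc and Eln. They were taken by symbol from a list, and all 10 were found among the 21882 gene symbols of each deposited table. RNA came from the skin of C57BL/6 embryos in 8 libraries. At embryonic day 16.5 (E16.5), whole skin of Cyp26b1-/- embryos was compared with that of wild type embryos, with 2 libraries a group and the gene lost in the whole embryo. At embryonic day 18.5 (E18.5), En1cre;Cyp26b1f/- dermis was compared with Cyp26b1f/+ dermis, and En1cre;Cyp26b1f/- epidermis with Cyp26b1f/+ epidermis, with 1 library a group. Cyp26b1 encodes a cytochrome P450 enzyme that degrades retinoic acid, and En1cre recombines the floxed allele in the lineage that expresses Engrailed 1, in skin the trunk dermis and the ventral limb ectoderm among others. The E18.5 mutants also carry a null allele in every cell, which the E18.5 controls do not, so loss in the Engrailed 1 lineage and a lower dose elsewhere cannot be told apart. Values are FPKM, fragment counts scaled to transcript length and library size, which can be compared between genes because they are divided by length.

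Small leucine-rich proteoglycans are secreted proteins that wrap around collagen fibrils and set their diameter and spacing. Decorin (Dcn), biglycan (Bgn) and asporin (Aspn) form their first class and also bind growth factors of the TGF-beta family. Lumican (Lum), fibromodulin (Fmod) and prolargin (Prelp) form the second class, and osteoglycin (Ogn) belongs to the third. In skin these proteins come mainly from dermal fibroblasts, and mice without decorin or without lumican have fragile skin with irregular collagen fibrils. Dermatopontin (Dpt) binds decorin and speeds fibril assembly, Sparc is a collagen-binding glycoprotein made by cells that build matrix, and elastin (Eln) is the core of the elastic fibre.

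Promoters are shown because the deleted enzyme degrades a ligand of nuclear receptors that bind DNA, and the genes shown were chosen, after their values were seen, from those with a window and a clear difference. Retinoic acid receptors bind pairs of the hexamers AGGTCA or AGTTCA with a short spacer. RefSeq windows from 250 bases before to 50 bases after the start (build GRCm38.p6) were at hand for 7 of the 10 genes, and Dcn, Lum and Eln were not among them. Dermatopontin (chr1:164796413-164796712, plus strand), biglycan (chrX:73483351-73483650, plus strand) and Sparc (chr11:55420031-55420330, minus strand) were among the genes higher in mutant dermis. Osteoglycin (chr13:49607765-49608064, plus strand) rose in Cyp26b1-/- skin. Capitals mark AGTTCA, the TATA box letters TATAAA and the GC box letters GGGCGG, each read on either strand.
Dpt: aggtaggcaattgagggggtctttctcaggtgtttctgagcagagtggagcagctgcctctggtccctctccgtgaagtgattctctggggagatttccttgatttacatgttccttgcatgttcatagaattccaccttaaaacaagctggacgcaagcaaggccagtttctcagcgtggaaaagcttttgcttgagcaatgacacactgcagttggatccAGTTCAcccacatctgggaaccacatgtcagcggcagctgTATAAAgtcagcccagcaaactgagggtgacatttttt
Bgn: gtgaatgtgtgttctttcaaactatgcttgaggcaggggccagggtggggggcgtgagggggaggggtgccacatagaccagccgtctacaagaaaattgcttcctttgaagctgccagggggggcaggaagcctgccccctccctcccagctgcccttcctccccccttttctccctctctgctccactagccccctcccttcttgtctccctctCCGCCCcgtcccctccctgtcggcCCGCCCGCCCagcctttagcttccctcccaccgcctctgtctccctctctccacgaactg
Sparc: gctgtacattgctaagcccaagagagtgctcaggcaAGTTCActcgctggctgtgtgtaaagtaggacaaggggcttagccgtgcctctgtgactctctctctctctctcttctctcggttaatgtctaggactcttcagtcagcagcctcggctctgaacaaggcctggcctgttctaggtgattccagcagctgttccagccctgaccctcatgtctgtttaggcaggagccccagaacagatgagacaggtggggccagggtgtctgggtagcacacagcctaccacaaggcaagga
Ogn: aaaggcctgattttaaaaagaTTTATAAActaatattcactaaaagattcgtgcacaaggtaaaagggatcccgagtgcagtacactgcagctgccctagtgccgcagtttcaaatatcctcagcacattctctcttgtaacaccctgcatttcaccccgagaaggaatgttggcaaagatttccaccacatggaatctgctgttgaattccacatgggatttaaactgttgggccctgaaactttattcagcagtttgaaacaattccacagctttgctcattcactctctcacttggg

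The letters AGGTCA stood in 0 of the 7 windows, against 16.3% of 32851 RefSeq windows of the same length. AGTTCA stood in 3 of 7 (Fmod, Dpt and Sparc), against 14.0% of all windows. The spaced pairs AGGTCANNAGGTCA and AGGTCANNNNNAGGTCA were in none of the 7 windows and in 0.00913% of all windows each. TATAAA was found in Ogn, Aspn and Dpt, against 13.6% of all windows. In Ogn and Aspn it lay far before the start, and in Dpt among the bases that follow it. GGGCGG was found in Bgn alone, with 3 matches of which 2 overlap, against 35.7% of all windows. These matches describe the letters of short windows only.

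The tables give 1 value a group. The E16.5 values pool both libraries of a group, so no spread between libraries can be computed, and the labels do not say whether the libraries came from separate animals. The E18.5 values have no replicates, and the depth of reads is not known from FPKM. Cyp26b1 itself, summed over its transcripts, stood at 58.2 FPKM in Cyp26b1-/- skin and 34.95 FPKM in wild type skin, at 101.7 and 54.2 FPKM in mutant and control dermis, and at 13.7 and 4.97 FPKM in mutant and control epidermis. The deleted exons are not named in the labels, so whole-transcript values do not check the genotypes. The labelled tissues were checked against their markers. The 6 basal keratinocyte markers summed to 3720 FPKM in mutant dermis and 12134 FPKM in control dermis. In epidermis they summed to 1861 FPKM in the mutant and 5709 FPKM in the control. In mutant and control alike, the sum was thus higher in the library labelled dermis, so both dermis libraries carried basal keratinocyte RNA. The suprabasal marker Krtdap did follow the labels, at 107.4 FPKM in mutant dermis and 98.7 FPKM in control dermis, against 5419 FPKM in mutant epidermis and 6811 FPKM in control epidermis. In these bulk tissues, fewer cells of a type and less RNA per cell cannot be told apart.

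The 10 genes spanned more than 2 orders of magnitude in E16.5 skin. Sparc was the most abundant, at 1975 FPKM in Cyp26b1-/- skin and 1639.5 FPKM in wild type skin, and made up 43.9% and 45.0% of the summed FPKM of the set. Dcn came next in both groups, followed by Lum and Bgn, then Dpt and Eln, then Ogn and Aspn. Prelp and Fmod were the lowest. The order was the same in both groups except that Lum stood above Bgn and Ogn above Aspn in Cyp26b1-/- skin, and neighbours in this order cannot be separated, because no spread is at hand.

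**Figure D1:**
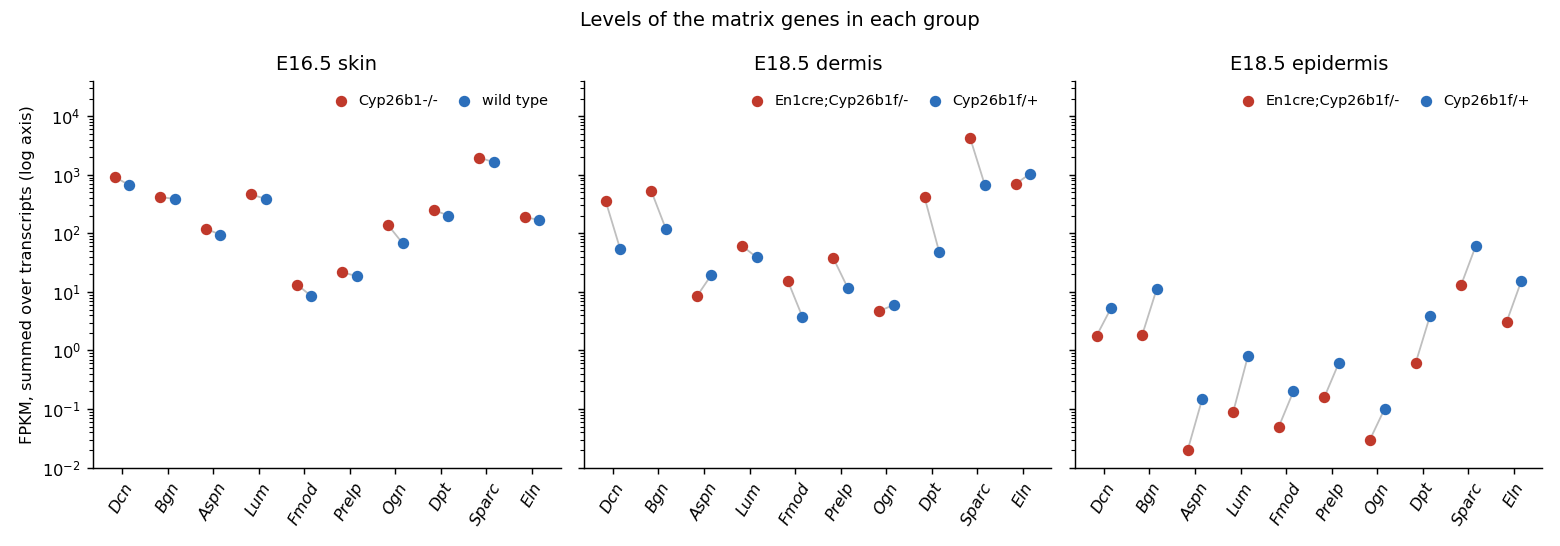
Each point is the FPKM of 1 gene in 1 group on a log axis, with the mutant in red on the left and its control in blue on the right, joined by a line. The E16.5 pairs lie close together, 6 genes stand well above their control in E18.5 dermis, and all 10 stand below their control in E18.5 epidermis.

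In E16.5 skin the set differed little relative to other genes, except for Ogn, which rose. All 10 genes were listed higher in Cyp26b1-/- skin, but so were most genes: the median log2 fold over 14154 genes of at least 1 FPKM was 0.43, on the log2((mutant FPKM + 1)/(control FPKM + 1)) scale, which understates the change of low genes. Folds are therefore given relative to the median gene, and those of the 10 genes had a median of -0.13 (0.29 before the subtraction). The interquartile range of all genes was -0.20 to 0.17. In the test used, the authors' deposited statistic was recomputed after subtracting the median deposited log2 fold and adjusted by Benjamini-Hochberg over 19608 transcripts. Its adjusted p values refer to the deposited folds, which have no pseudocount. It called 1 of the 10 genes higher and 1 lower at an adjusted p below 0.05, where 8.27% and 9.99% of 16303 tested genes were called higher and lower. With the q-values of the authors' deposited table, 5 of the 10 were higher (Dcn, Fmod, Ogn, Aspn and Dpt) and 0 lower (also 0 at an unadjusted p below 0.05), where 54.6% and 3.46% of tested genes were.

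Ogn, a leucine-rich repeat protein of fibrils and bone, had 138.6 FPKM in Cyp26b1-/- skin, against 67.8 FPKM in wild type skin. Its level was about 2-fold higher in the mutant before any correction. The deposited log2 fold stood 0.56 above the median (SE 0.14, implied by the deposited statistic), with an adjusted p of 0.00065877 by the recomputed statistic, so Ogn rose. This SE is that of the authors' model and not a spread between embryos.

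Among the first class, Dcn had 919.8 FPKM in Cyp26b1-/- skin and 668 FPKM in wild type skin, at 0.03 relative to the median gene. Both of its transcripts stood within 1 SE or little more of the median transcript: NM_001190451, with 808 FPKM in Cyp26b1-/- and 578 FPKM in wild type skin, had a log2 fold minus the median of 0.01 (adjusted p 0.983). Bgn had 412 FPKM in Cyp26b1-/- skin and 391.7 FPKM in wild type skin. Its deposited log2 fold relative to the median transcript was -0.40 (SE 0.17, adjusted p 0.0805), the lowest of the single-transcript genes and short of the threshold. Aspn, which binds collagen through its leucine-rich repeats and is expressed in tendon, ligament and dermis, differed by transcript. Its main transcript NM_025711, which made up 98.0% of the gene in Cyp26b1-/- skin and 96.2% in wild type skin, had 117.9 and 91.1 FPKM and was not called (log2 fold minus the median -0.10, SE 0.14, adjusted p 0.699). Its minor transcript NM_001172481 had 2.41 FPKM in Cyp26b1-/- skin and 3.62 FPKM in wild type skin and fell (-1.06, SE 0.32, adjusted p 0.0076631). The lower call of the set is that minor transcript, and with the most abundant transcript alone 0 genes were called lower by the recomputed statistic. With all transcripts counted, 2 of the set, Bgn and Aspn, were lower at an unadjusted p below 0.05.

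In the second class none passed the test. Lum, the lumican gene, had 461 FPKM in Cyp26b1-/- skin and 387 FPKM in wild type skin (-0.17 relative to the median gene, adjusted p 0.421). Fmod, which guides fibril thickness and collagen crosslinking, had 13.35 FPKM in Cyp26b1-/- skin and 8.45 FPKM in wild type skin (0.17, adjusted p 0.510). Prelp, which anchors basement membranes to the underlying matrix, had 21.55 FPKM in Cyp26b1-/- skin and 18.6 FPKM in wild type skin (-0.22, adjusted p 0.220). The other matrix proteins were not called either. Dpt had 252 FPKM in Cyp26b1-/- skin and 201.5 FPKM in wild type skin, Sparc 1975 and 1639.5 FPKM, and Eln 189 and 169 FPKM, with folds of -0.11, -0.16 and -0.27 relative to the median gene. Their adjusted p values were 0.543, 0.718 and 0.187. A p that misses the threshold does not show equal levels, and the SE of Sparc was 0.29, against 0.14 for Ogn.

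**Figure D2:**
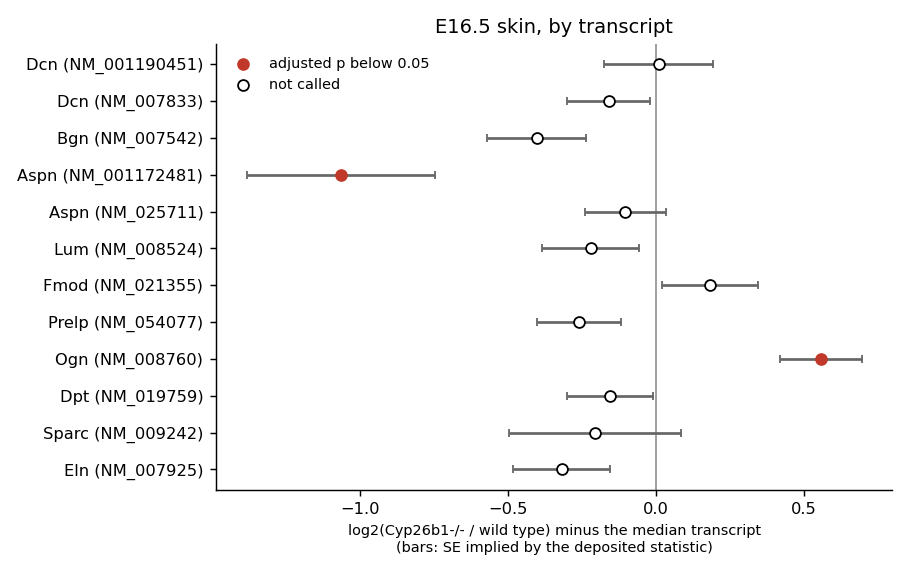
Each row is 1 RefSeq transcript, and the point is its log2 fold, Cyp26b1-/- over wild type, minus the median transcript, in E16.5 skin. Bars are 1 SE implied by the deposited statistic. Filled points passed an adjusted p of 0.05: Ogn at 0.56 and the minor Aspn transcript at -1.06.

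Transcript base composition moved with the fold at E16.5. Over 13426 genes, which are not independent of each other, the fold was lower at higher GC content (Spearman rho -0.33), and the median per GC decile ran from 0.12 in the poorest decile to -0.19 in the richest. Among the 10 genes rho was -0.50, a description over genes that share libraries. Ogn, at 36.3% GC, and Eln, at 62.6%, lie near opposite ends, but Aspn, with the lowest GC of the set at 34.4%, did not have a high fold. When each transcript was set against the median of its own GC decile, Ogn stood at 0.41 (SE 0.14, adjusted p 0.022) and remained called. Eln then stood at -0.10 and the minor Aspn transcript at -1.21 (adjusted p 0.0018). Of the markers, the 3 measured fibroblast genes summed to 276 FPKM in Cyp26b1-/- skin and 282 FPKM in wild type skin and 3 of 3 fell relative to the median. The 4 bone markers summed to 177 FPKM in Cyp26b1-/- skin and 41.8 FPKM in wild type skin. They differed among themselves, with Bglap at 110.6 and 8.3 FPKM, Ibsp at 59.7 and 28.35 FPKM, Sp7 at 6.02 and 4.27 FPKM and Phex at 0.85 and 0.92 FPKM. In the same order, the 6 cartilage markers summed to 22.6 and 14.5 FPKM, and the 4 tendon markers to 20.6 and 19.5 FPKM. No marker of these lists was at 0, apart from Col3a1 and Col1a2, whose estimates failed. Ogn and Aspn are expressed in such skeletal tissues too, and the part of these tissues in the Ogn result was not tested.

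**Figure D3:**
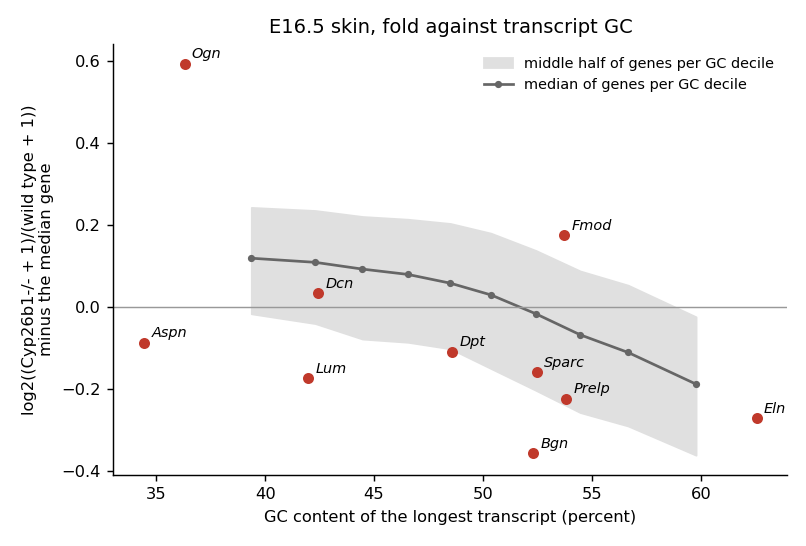
The x axis is the GC percent of the longest transcript and the y axis the E16.5 log2 fold, Cyp26b1-/- over wild type, relative to the median gene. The grey line is the median of all genes per GC decile and the band their interquartile range. Ogn, at low GC, stands far above the median of its GC decile and Fmod stands above that of its own. The other genes of the set stand below the medians of theirs.

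In E18.5 dermis most of the set was far higher in the En1cre;Cyp26b1f/- library. Dpt, Dcn, Sparc, Bgn, Fmod and Prelp were each more than 2-fold higher, while Eln, Ogn and Aspn were listed lower by their FPKM. Relative to the median gene, which stood at 0.12, 6 of the 10 genes were at least 2-fold higher and 1 at least 2-fold lower, where 14% and 13.9% of 13398 genes were. The set's median fold was 1.58 (1.71 before the subtraction), and the interquartile range of all genes was -0.63 to 0.63. With 1 library a group these are differences between 2 libraries, without a test. As the 6 genes stood in the same pair of libraries, they are not separate observations of the genotype.

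The first class did not move together. Dcn had 358 FPKM in mutant dermis, against 53.8 FPKM in control dermis, which is 6.66-fold higher. Bgn had 534 FPKM in mutant dermis, against 120.25 FPKM in control dermis, 4.44-fold higher. Aspn, the third of the class, had 8.36 FPKM in mutant dermis and 19.5 FPKM in control dermis, the 1 gene of the set past 2-fold lower. That difference lies in NM_001172481, the minor transcript at E16.5, listed at 0 in mutant dermis and at 11.2 FPKM in control dermis. In control dermis it made up 57.6% of the gene. The other transcript, NM_025711, had 8.36 FPKM in mutant and 8.26 FPKM in control dermis. Dcn also differed by transcript: NM_001190451 had 305 FPKM in mutant dermis and 23.4 FPKM in control dermis, whereas NM_007833 had 53.1 and 30.4 FPKM. NM_001190451 thus made up 85.2% of the gene in mutant dermis, near its share in both E16.5 groups, and 43.5% in control dermis. Control epidermis had a like share of 38.2%, at a summed level of 5.34 FPKM. Splitting reads between transcripts of 1 gene is an estimate of the authors' software.

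**Figure D4:**
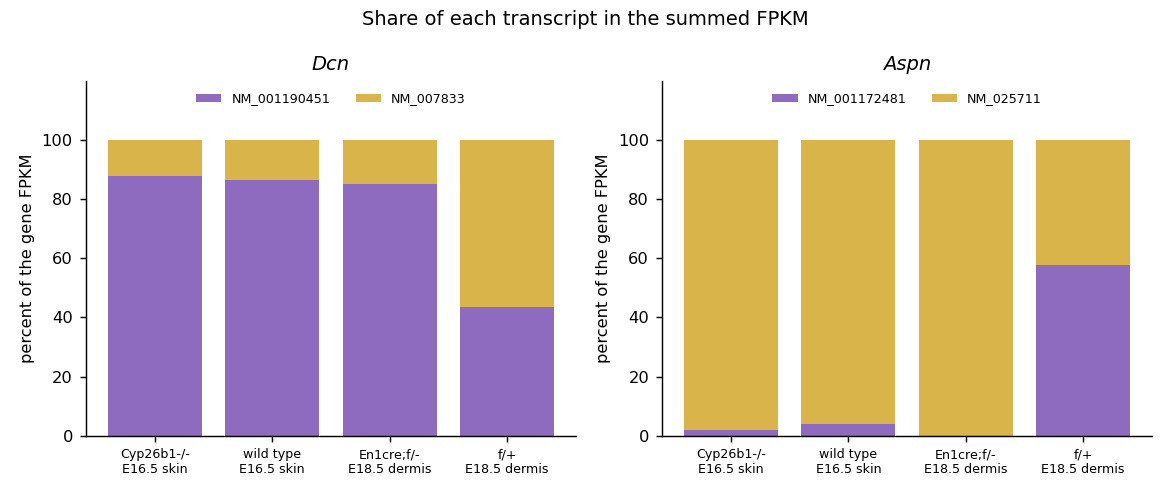
Bars give the share of each RefSeq transcript in the summed FPKM of Dcn (left) and Aspn (right), in percent, with each mutant left of its control. Of the 4 groups drawn, control dermis had the lowest share of NM_001190451 in Dcn, at 43.5%, against 85.2% in mutant dermis, and the highest share of NM_001172481 in Aspn. The epidermis, where both genes were low, is not drawn.

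In the second class, Fmod and Prelp were higher together and Lum less so. Fmod had 15.35 FPKM in mutant dermis and 3.73 FPKM in control dermis (4.12-fold), and Prelp 37.4 and 11.5 FPKM (3.26-fold). Lum had 60.6 FPKM in mutant dermis and 38.8 FPKM in control dermis, 1.56-fold higher and within the interquartile range of all genes. Ogn, the gene that rose at E16.5, had 4.7 FPKM in mutant dermis and 5.97 FPKM in control dermis. Its level was thus low in both E18.5 dermis libraries, and the difference lay inside the interquartile range of all genes.

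The largest difference of the set was that of Dpt, with 414 FPKM in mutant dermis and 48.6 FPKM in control dermis (8.52-fold, 2.94 relative to the median gene). Sparc had 4267 FPKM in mutant dermis and 683 FPKM in control dermis (6.25-fold), and was among the 10 most abundant genes of the mutant library, at rank 7 of 21694. Eln was listed lower, with 699 FPKM in mutant dermis and 1048 FPKM in control dermis (-0.71 relative to the median gene). The direction of this fold depended on the centring: folds in dermis were lower at higher GC content (Spearman rho -0.27 over 12763 genes), and relative to the genes of its own GC decile Eln stood at 0.10. Ogn likewise stood at 0.05 on that scale, against -0.41 relative to the median gene. The makeup of the set therefore differed between the libraries. Sparc made up 66.7% of the summed FPKM in mutant dermis and 33.6% in control dermis, while Eln made up 10.9% in mutant dermis and 51.5% in control dermis. The sum of the set was 6399 FPKM in mutant dermis and 2033 FPKM in control dermis. In the authors' deposited table, Dpt and the Dcn transcript NM_001190451 were marked significant in dermis, a mark that rests on single libraries.

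Markers of several cell types differed between the same 2 dermis libraries. The 6 keratinocyte markers were lower in mutant dermis, at the sums given above, with a median fold of -1.35 relative to the median gene, and none was at 0. The 5 suprabasal markers summed to 354 FPKM in mutant dermis and 923 FPKM in control dermis. All 5 endothelial markers were at least 2-fold higher, with a sum of 191 FPKM in mutant dermis and 49.2 FPKM in control dermis. The 5 skeletal muscle markers summed to 2757 FPKM in mutant dermis and 936 FPKM in control dermis, the 4 of smooth muscle and pericytes to 243 and 86.2 FPKM, and the macrophage list to 99.9 and 31.0 FPKM. The cartilage, tendon and bone lists summed to at most 12.02 FPKM in either dermis library. Of the 4 adipocyte markers, 3 were far lower in mutant dermis (list median -3.97). Adipoq had 3.5 FPKM in mutant dermis and 59.5 FPKM in control dermis, and Plin1 5.28 and 95.7 FPKM. Cfd, at 0.66 and 61.9 FPKM, passed 1 FPKM only through the control. Fabp4, the fatty acid carrier of adipocytes and capillaries, had 317 FPKM in mutant dermis and 73.2 FPKM in control dermis. Fibroblast markers were mixed. Pdgfra had 18.1 FPKM in mutant dermis and 8.07 FPKM in control dermis, Thy1 209.8 and 91.8 FPKM, and Twist2 312 and 387 FPKM. Col1a2 and Col3a1 had failed estimates. When the folds were set against the median of these 3 fibroblast markers in place of the median gene, the median of the 10 matrix genes was 0.63, 4 were at least 2-fold higher and 3 at least 2-fold lower, and Lum stood at -0.45. The median of these 3 markers is the fold of Pdgfra (0.95), with Thy1 at 1.06 and Twist2 at -0.43. This centring is therefore no test of tissue composition, and its part in the dermis differences was not tested.

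**Figure D5:**
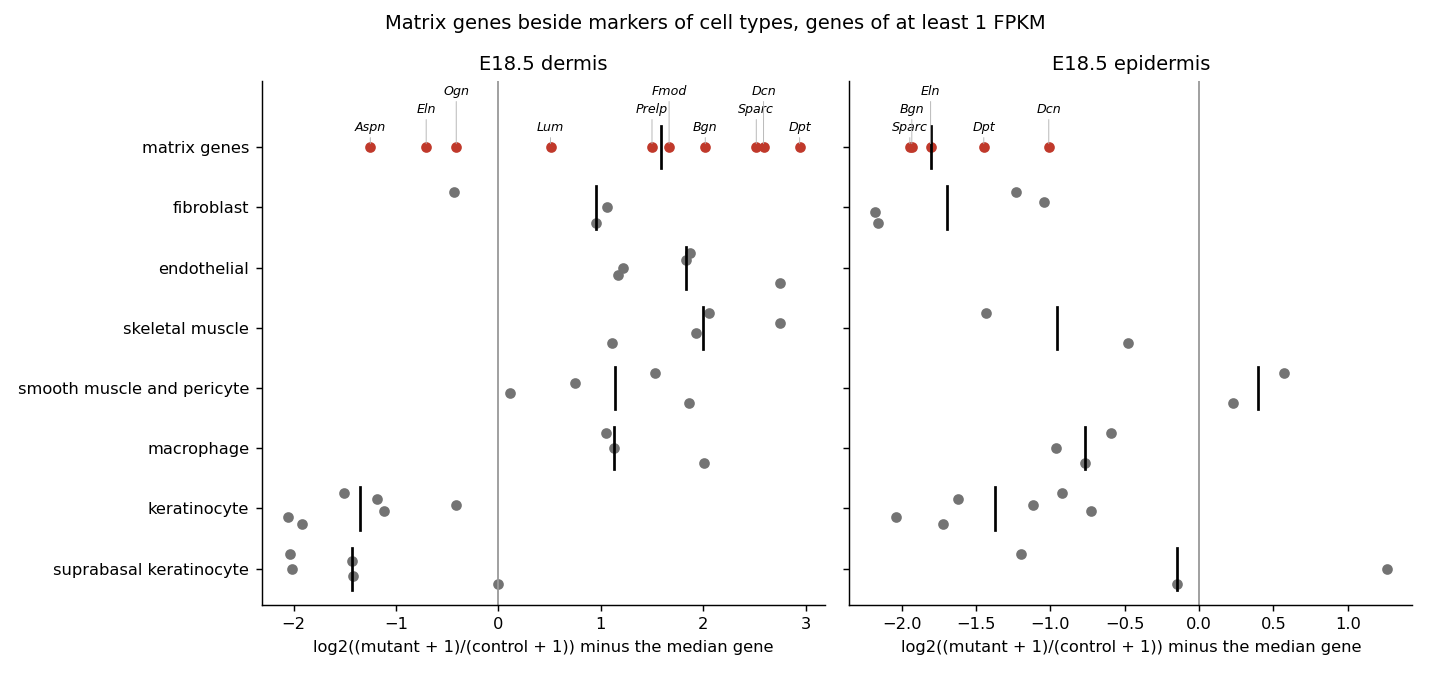
Points are genes of at least 1 FPKM, placed by log2((mutant + 1)/(control + 1)) minus the median gene in dermis (left) and epidermis (right), and black bars are medians of each row. The matrix genes (red, named) spread from -1.25 to 2.94 in dermis, where endothelial and muscle markers lie to the right and keratinocyte markers to the left.

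In E18.5 epidermis all 10 genes were listed lower in the En1cre;Cyp26b1f/- library, from low levels. Sparc had 13.1 FPKM in mutant epidermis and 60.3 FPKM in control epidermis, Eln 3.09 and 15.2 FPKM, and Bgn 1.83 and 11.2 FPKM. Dcn had 1.78 FPKM in mutant epidermis and 5.34 FPKM in control epidermis, and Dpt 0.6 and 3.94 FPKM. These are the 5 genes that reached 1 FPKM in either group, Dpt only through the control. All 5 were at least 2-fold lower relative to the median gene (background 4.86% of 11362 genes) and 0 were higher (background 3.49%), with folds from -1.95 for Sparc to -1.01 for Dcn. In Dcn the difference lay in NM_007833, listed at 0 in mutant and 3.3 FPKM in control epidermis, with NM_001190451 at 1.78 and 2.04 FPKM. The other 5 genes (Lum, Fmod, Ogn, Aspn and Prelp) stood between 0.02 and 0.16 FPKM in mutant epidermis and between 0.1 and 0.79 FPKM in control epidermis. In the authors' deposited table, Bgn, Sparc, Eln and the Dcn transcript NM_007833 were marked significant in epidermis, again from single libraries.

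The fibroblast markers were lower in the same library. They summed to 36.55 FPKM in mutant epidermis and 182 FPKM in control epidermis, and all 4 that reached 1 FPKM were at least 2-fold lower. The 6 keratinocyte markers were lower too, at the sums given above, with a median of -1.37. The endothelial markers summed to 0.5 FPKM in mutant epidermis and 2.2 FPKM in control epidermis, the skeletal muscle markers to 23.9 and 43.5 FPKM and the macrophage markers to 20.02 and 44.31 FPKM. Against the median of the 4 measured fibroblast markers, the 5 matrix genes had a median of -0.11 and 0 were at least 2-fold lower. These markers were Col1a2 (-2.16), Col3a1 (-2.18), Thy1 (-1.05) and Twist2 (-1.23), not the same set as in dermis. Col1a2 and Col3a1 are collagen genes, so this centring sets matrix genes partly against matrix genes. The 10 genes summed to 20.7 FPKM in mutant epidermis and 97.8 FPKM in control epidermis, and Sparc made up 63.1% and 61.6% of that sum. Whether matrix RNA came from epidermal cells or from dermal cells in the preparation was not tested.

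The ratio of dermis to epidermis FPKM, set across 2 tables that were normalised separately, was higher in the mutant than in the control for each gene. The dermis and epidermis libraries carry different sample numbers in the labels, in mutant and control alike, so the tissues are not matched. Of the 10 genes, 5 did not reach 1 FPKM in epidermis. The mutant ratios of Ogn and Aspn divide by 0.03 and 0.02 FPKM. On the log2(FPKM + 1) scale, relative to the median gene, the dermis fold minus the epidermis fold was -0.50 for Ogn and -1.26 for Aspn, opposite to what the ratios give. In the mutants, dermis stood from 157-fold (Ogn) to 689.5-fold (Dpt) above epidermis. In the controls it stood from 10.1-fold (Dcn) to 130-fold (Aspn) above epidermis. Dcn, Bgn, Sparc and Dpt had control ratios of 10.1, 10.7, 11.3 and 12.3, within a narrow range, whereas Eln had 69.0. Each ratio uses the same libraries as the comparisons above and adds no separate evidence.

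Several of the genes lie in clusters of related genes, given here on the mouse build NCBIM37, the build of the deposited loci. Dcn (chr10:96942245-96980777) and Lum (chr10:97028135-97035337) are 47.4 kb apart on the plus strand, followed by Kera and Epyc, which encode keratocan of the cornea and epiphycan of cartilage. Aspn (chr13:49639812-49662926) and Ogn (chr13:49703440-49719869) share the plus strand with Ecm2 and Omd, all inside Cenpp on the other strand, with 0 shared exon bases. Prelp (chr1:135806881-135817991, minus strand) and Fmod (chr1:135933831-135944854, plus strand) are 116 kb apart, with Optc, the opticin gene of the eye, beside Prelp. The other members are Dpt (chr1:166726863-166754397), Sparc (chr11:55208002-55233582), Eln (chr5:135179651-135223111) and Bgn (chrX:70728941-70741272). Levels and folds within a cluster differed. In dermis, Dcn was 6.66-fold higher and the adjacent Lum 1.56-fold higher. Kera had 18.4 FPKM in Cyp26b1-/- skin and 11.7 FPKM in wild type skin, and 0.27 and 0.24 FPKM in mutant and control dermis. Omd, the osteomodulin gene between Aspn and Ogn, had 7.46 FPKM in Cyp26b1-/- skin and 3.85 FPKM in wild type skin without a call, and 6.13 FPKM in mutant dermis and 1.48 FPKM in control dermis. Ecm2, next to Aspn, had 2.65 FPKM in Cyp26b1-/- skin and 2.97 FPKM in wild type skin and fell relative to the median (adjusted p 0.0437). Epyc was at 2.49 FPKM in Cyp26b1-/- and 1.6 FPKM in wild type skin and at 0 in the E18.5 libraries, and Optc was below 1 FPKM in every group.

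Other matrix genes were counted in 5 companion lists. At E16.5, 0 of 10 other leucine-rich repeat genes rose and 3 fell. Of 9 large proteoglycans 0 rose and 2 fell, of 16 elastic fibre genes 0 rose and 6 fell, of 21 matricellular glycoproteins 1 rose and 3 fell, and of 31 matrix enzymes 2 rose and 5 fell. Over all tested genes 8.27% rose and 9.99% fell, and the counts of matricellular genes and enzymes lie near those shares. At an unadjusted p below 0.05, the counts at 0 stayed at 0 rises in those 3 lists, with 4, 5 and 10 lower. The authors' deposited calls were the reverse in balance, with 3, 2, 3, 11 and 17 higher and 1, 1, 1, 1 and 0 lower, beside 54.6% and 3.46% of all tested genes, so the direction of these counts depends on the subtraction of the median. Ecm1, an adhesive glycoprotein of skin, had the largest fold, with 37.6 FPKM in Cyp26b1-/- skin and 110.1 FPKM in wild type skin (-1.95 relative to the median gene, adjusted p 5.2404e-40). The proteoglycan Cspg4 of pericytes and progenitor cells fell to 11.6 FPKM in Cyp26b1-/- skin, against 14.6 FPKM in wild type skin (adjusted p 3.4074e-07). Podn, the podocan gene, fell to 4.6 FPKM, against 6.41 FPKM in wild type skin (adjusted p 3.8708e-05). Those that rose included Spon2, the secreted protein mindin, with 21.5 FPKM in Cyp26b1-/- skin and 9.63 FPKM in wild type skin, and the crosslinking enzyme Tgm2, with 34.3 and 16.1 FPKM. Among elastic fibre genes, Fbln2 (72.8 FPKM in Cyp26b1-/- skin, 78.0 FPKM in wild type skin) and the latent TGF-beta binding gene Ltbp2 (13.5 and 14.3 FPKM) fell relative to the median. The calls of the 5 lists are given without GC decile centring, and the part of GC content in them was not tested.

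In E18.5 dermis, 7 of 21 matricellular genes, 8 of 30 enzymes and 6 of 16 elastic fibre genes were at least 2-fold higher, and 1, 2 and 1 at least 2-fold lower, beside the 14% and 13.9% of all genes. Sparcl1, the nearest relative of Sparc, had 166 FPKM in mutant dermis and 31.8 FPKM in control dermis. Thbs2 had 73.7 FPKM in mutant dermis and 19.0 FPKM in control dermis, and periostin (Postn) 237 and 63.9 FPKM. The collagen prolyl hydroxylase subunits P4ha2 and P4ha1 had 187 and 55.6 FPKM in mutant dermis, against 36.8 and 12.2 FPKM in control dermis. Of elastic fibre genes, the microfibril protein Mfap5 had 119 FPKM in mutant dermis and 13.9 FPKM in control dermis, and Fbln5, which guides elastin assembly, 18.5 and 4.5 FPKM. Of 6 other leucine-rich repeat genes, Omd alone was at least 2-fold higher. Among 9 large proteoglycans, 1 was at least 2-fold higher, versican (Vcan), with 31.5 FPKM in mutant dermis and 11.6 FPKM in control dermis. The 2 that were at least 2-fold lower were Bcan and Hapln3. Bcan passed 1 FPKM only through the control, with 0.19 FPKM in mutant dermis and 4.59 FPKM in control dermis. Hapln3 had 8.25 FPKM in mutant dermis and 22.8 FPKM in control dermis. The median of this list was -0.59 relative to the median gene. In epidermis, 0 genes of the 5 lists were at least 2-fold higher, and 2 of 6 large proteoglycans, 4 of 11 elastic fibre genes, 4 of 19 matricellular genes and 3 of 19 enzymes were at least 2-fold lower, beside 3.49% of all genes higher and 4.86% lower. The proteoglycan Cspg4 passed 1 FPKM only through the control, with 0.37 FPKM in mutant epidermis and 2.11 FPKM in control epidermis. The collagen chaperone Serpinh1 had 8.66 FPKM in mutant epidermis and 36.1 FPKM in control epidermis, and Mfap2 4.04 and 19.5 FPKM.

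The genes nearest to the set in pattern were sought over the 6 columns of the tables, on log2(FPKM + 1) centred on each gene's mean, among 14679 genes. The Euclidean distance to the median pattern of the 10 genes was 0.53 for Bgn, the nearest of all, and 3.81 for Ogn, the farthest of the set. That median is made from the 10 genes themselves, which favours small distances for them. Their ranks by distance still ran from 1 for Bgn to 914 for Ogn, so the set did not share 1 pattern. Outside the set, the 5 nearest were Fstl1 (0.59), Pmp22 (0.61), Fn1 (0.69), Tnnt1 (0.77) and Cav1 (0.80). Fstl1, a secreted protein related to Sparc, had 443 FPKM in Cyp26b1-/- and 376 FPKM in wild type skin, 426 FPKM in mutant and 113 FPKM in control dermis, and 1.27 FPKM in mutant and 7.28 FPKM in control epidermis. Fibronectin (Fn1), a fibril-forming glycoprotein, had 276 FPKM in mutant dermis and 91.4 FPKM in control dermis. Tnnt1 is a troponin of slow skeletal muscle, whose markers also differed between the dermis libraries. The pattern is 6 values in libraries of which 1 pair each sets the E18.5 columns.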

How the data were processed

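RNA from C57BL/6 embryonic skin was sequenced after Trizol extraction and TruSeq library preparation, per the labels' protocols. Build mm9 and the tools Bowtie 0.12.7.0, TopHat 1.3.2, Cuffdiff 1.3.0 and Cufflinks are named, per the submitters' processing notes. Strand handling is not given in the sources used here, so reads of overlapping genes may be shared. The deposited FPKM are per RefSeq transcript (27641 in each table), per the file headers. The log2 folds of the authors' deposited tables are mutant over control, and the authors deposited a test statistic, a score, beside them. The p-value and q-value columns were deposited by the authors too, and the normal p of the statistic differed from the deposited p-value by at most 0.00401 at E16.5. The E16.5 columns pool 2 libraries a group.

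FPKM were summed per symbol, and folds are log2((mutant + 1)/(control + 1)) minus the median gene, over genes of at least 1 FPKM in either group without a failed, too deep or too shallow estimate (1080, 7 and 271 transcripts at E16.5). For E16.5, the implied SE is the deposited fold over the deposited statistic (median 0.169). The median deposited log2 fold of 0.474 was subtracted, a two-sided normal p computed, and Benjamini-Hochberg adjustment run over tested transcripts. A gene was called when at least 1 transcript passed 0.05 one way and none the other. E18.5 genes were counted at 2-fold, with no p-value. GC content and positions came from GENCODE vM1 on NCBIM37, the same assembly as mm9, and promoters from RefSeq.

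The genes named were all 10 members, the neighbours in their clusters, the 3 genes with the largest absolute fold in each of 5 companion lists and the 5 nearest in pattern. Some that the rule names are counted only. Members, lists and tests were chosen with earlier results of these data known. The recomputed E16.5 test was run on simulated data, with independent normal noise drawn from the same implied SEs. This run therefore could not check those SEs or the GC trend. The FPKM folds and 2-fold counts were not simulated. Python 3.11.15, numpy 2.4.6, pandas 2.3.3 and scipy 1.17.1 were used. Alternatives varied the pseudocount, the filter, the centring, the transcript used and the thresholds.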

Additional observations from a re-analysis of the deposited data

Results flagged for a closer look

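The mutant-over-control fold had opposite signs in the 2 E18.5 tissues for Dcn, Bgn, Dpt and Sparc, which were higher in mutant dermis and lower in mutant epidermis. With each log2 fold taken relative to its own median gene, the dermis fold exceeded the epidermis fold by 3.60 for Dcn, 3.95 for Bgn, 4.39 for Dpt and 4.46 for Sparc. With 1 library in each group, and different sample numbers for dermis and epidermis, the difference was not tested. Of the fibroblast markers, Thy1 (1.06 in dermis and -1.05 in epidermis) changed sign between the tissues and Twist2 (-0.43 and -1.23) did not, and the others were not measured in both. The part of fibroblast RNA in the difference was not tested.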

How the results depend on the processing

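The value of each gene was recomputed under 8 settings. Of 80 values at E16.5, 50 moved by less than 1 SE implied by the deposited statistic, 26 moved more and 4 changed sign. Of 80 in dermis, 70 held and 10 moved, and of 39 in epidermis, 31 held, 5 moved and 3 changed sign. Each was judged by the SE of its own comparison, which was wider in dermis, for Sparc 1.42 against 0.29 at E16.5. Sparc in dermis thus counted as held while it went from 2.52 to 1.56 with fibroblast centring. The shares that held therefore cannot be compared between E16.5 and E18.5. Changes of sign were counted for called genes and for genes past 2-fold only. Among the others at E16.5, Lum, Bgn, Prelp, Dpt, Sparc and Eln became positive with no centring, and all of these but Bgn with fibroblast centring. With no filter, Lum, Dpt and Sparc became positive, and Dcn became -0.075 with GC decile centring. Among the others in dermis, Eln became 0.10 and Ogn 0.050 with GC decile centring, and Lum -0.45 with fibroblast centring. At E16.5 the median of the set, -0.13, became 0.041 with no filter on low values, 0.29 with no centring and 0.20 when centred on fibroblast markers (a choice made after seeing the data, like GC decile centring and the use of the most abundant transcript for calls). Aspn at E16.5 became 0.013 with a pseudocount of 5, 0.089 with no filter, 0.34 with no centring and 0.25 with fibroblast centring. The authors' own q gave 5 higher and 0 lower, and the most abundant transcript alone 0 lower. In dermis the count at least 2-fold lower was 0 with a pseudocount of 5, 0 with the most abundant transcript, 0 with GC decile centring, 2 at 1.5-fold and 3 with fibroblast centring, under which the median was 0.63. In epidermis the count at least 2-fold lower was 3 with a pseudocount of 5 and 0 with fibroblast centring. Its median was -0.94 with no filter and -0.11 with fibroblast centring, which in epidermis rests partly on the collagen genes Col1a2 and Col3a1. Epidermal Dcn became 0.051 with the most abundant transcript and 0.68 with fibroblast centring, and Dpt 0.24 with the same centring. Beyond what each setting does by construction, the cause was not tested.

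No paired analysis was possible because the E16.5 columns pool the libraries and carry no replicate numbers, and the E18.5 groups have 1 library each. No replicate was left out, since neither kind of column allows it. Limits come from this design: the SE at E16.5 is that of a model, the E18.5 folds describe single libraries, and depth is unknown, so the precision of values below 1 FPKM is not known.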

Other observations

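Of 16 other elastic fibre genes, 5 (31.2%) were listed lower in mutant dermis, against 44.6% of all 13398 genes. The list median was 0.34 relative to the median gene, inside the interquartile range of all genes (-0.63 to 0.63). Eln itself was listed lower but stood at 0.10 with GC decile centring. The 5 genes listed lower are given because they share the listed direction of Eln and were chosen after their values were seen. Of these, Ltbp3 alone lay outside that interquartile range. Mfap2, a core microfibril protein, had 699 FPKM in mutant dermis and 829 FPKM in control dermis, and Ltbp3, which holds latent TGF-beta in the matrix, had 49.3 and 104.4 FPKM (-1.19 relative to the median gene). Ltbp4 (125 and 161 FPKM), Fbln2 (159 and 182 FPKM) and Emilin1 (96.6 and 109 FPKM) were listed lower by less. These are values of 1 library a group, with no test.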
